A study of Homo sapiens with 15 samples.

Results

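The 3 libraries of the group labelled SG3 were compared with the 3 libraries of the group labelled CTRL, out of 15 libraries in the series. All 15 are labelled MDA-MB231, a human breast cancer cell line that lacks the oestrogen, progesterone and HER2 receptors that define other breast cancer subtypes, and the cells were grown in DMEM with 10% fetal bovine serum. The labels give the genotype of SG3 as KIF20A knockdown and that of CTRL as WT. A further 3 libraries labelled SG1 carry the same KIF20A knockdown genotype, share the CTRL libraries as their comparison and are used here only to set SG3 apart. The labels do not say what SG1 and SG3 stand for, whether either group is 1 clone, or whether the replicates are separate cultures, so each p-value reflects variation among these libraries alone, part of which may be technical. The values are reads counted per gene and scaled to a common library total (CPM, with TMM library sizes), and 16786 genes had enough reads to be tested.

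KIF20A encodes a mitotic kinesin that gathers on the central spindle in anaphase and is needed for cytokinesis, and it also binds the Golgi GTPase RAB6. Several of the genes described below belong to opposing arms of lipid metabolism. Sterol regulatory element-binding proteins switch on fatty acid and cholesterol synthesis, while nuclear receptors of the PPAR family switch on genes for the uptake and burning of fatty acids. ATF4 is the transcription factor of the integrated stress response and drives amino acid import and synthesis, and XBP1 serves the unfolded protein response of the endoplasmic reticulum.

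The libraries held 50722853, 46486565 and 40895819 counts in SG3 and 44545828, 49477386 and 50180783 counts in CTRL. On the first principal component, which carried 23.4% of the variance over the SG3, SG1 and CTRL libraries, SG3 replicates 1, 2 and 3 lay at 32.1, -33.4 and -29.99, against -27.4, -21.3 and 24.7 for CTRL replicates 1, 2 and 3. SG3 replicate 1 and CTRL replicate 3 thus stood apart from the other libraries of their groups, on the side of the SG1 libraries at 16.6 to 22.0, and the main counts below are also given without them. Mitochondrial mRNA took 2.03%, 1.19% and 0.975% of the counts in SG3 and 2.55%, 1.14% and 0.962% in CTRL. Of the mesenchymal genes that mark MDA-MB231, VIM had 536 to 608 CPM in SG3 and 558 to 816 CPM in CTRL, and CD44 had 1111 to 1712 CPM in SG3 and 1281 to 1488 CPM in CTRL, while TWIST2 was at 0 and SPARC had 0.248 to 0.386 CPM in SG3 and 0.309 to 1.01 CPM in CTRL. None of the 9 tested markers of this list separated the groups, but their summed level did, with 6038, 6218 and 6205 CPM in SG3 against 6262, 7310 and 6650 CPM in CTRL, and its part in the results was not tested. The T cell marker CD3E and the fibroblast markers DCN and DPT were at 0 in all SG3 and CTRL libraries. Since RNA was extracted from whole cultures, fewer cells of a kind and less RNA per cell cannot be told apart.

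KIF20A was the gene with the smallest p-value in the comparison, and its libraries did not overlap. KIF20A (ENSG00000112984.12, plus strand of chromosome 5, 138178719 to 138187715 in GRCh38) had 86.3, 60.8 and 79.1 CPM in SG3 against 154, 171 and 160 CPM in CTRL. The mean was 75.4 ± 13.1 CPM in SG3 and 162 ± 8.75 CPM in CTRL (SD, n = 3 each), so SG3 held 46.6% of the CTRL level. These values rest on 4528, 2854 and 3283 counts in SG3 and 6975, 8455 and 7773 counts in CTRL. KIF20A had a log2 fold change of -1.10 ± 0.18 (SE), with an unadjusted p of 1.97e-05 and a Benjamini-Hochberg adjusted p of 0.33 in edgeR's quasi-likelihood test. The adjusted p was 0.000186 in DESeq2, and over all settings tried it ran between 1.85e-07 and 1. The exact two-sided permutation test of 3 against 3 libraries gave p = 0.1, the smallest value it can give. KIF20A had 123, 147 and 91.5 CPM in SG1, so every SG3 library was also below every SG1 library, and the difference of SG3 from SG1 had an unadjusted edgeR p of 0.0017 and an adjusted p of 0.861.

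No gene, or 0% of those tested, passed an adjusted p of 0.05 in edgeR, where 200 genes (1.19%) had an unadjusted p under 0.05. That share was smaller than the threshold of 0.05 itself. DESeq2 called 4 genes (0.0238%): ANGPTL4, PDK4 and CPT1A higher in SG3, and KIF20A lower. Complete separation of the libraries was therefore described as a count with no test. All 3 SG3 libraries lay above all 3 CTRL libraries for 383 genes (2.28%) and below them for 399 genes (2.38%), or 4.66% in either direction. If the libraries were in random order, a gene would separate in either direction with a probability of 0.1. The observed share was below that, so these counts do not by themselves show that the groups differ. With CPM on plain library totals in place of TMM sizes the counts were 509 higher and 313 lower. Of the 383 genes higher in SG3, 179 averaged at least 2 CPM, 266 were protein coding and 98 also had all SG3 libraries above all SG1 libraries. Of the 399 genes lower in SG3, 232 averaged at least 2 CPM, 283 were protein coding and 117 also had all SG3 libraries below all SG1 libraries. Taking a library away can only keep or raise these counts. The shares were 9.94% higher and 9.73% lower without SG3 replicate 1, 7.01% and 6.88% without CTRL replicate 3, and 16.5% and 16.8% without both. Which library was taken away mattered as well, since the shares were 4.53% higher and 5.23% lower without SG3 replicate 2 and 5.08% higher and 4.59% lower without SG3 replicate 3.

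**Figure D1:**
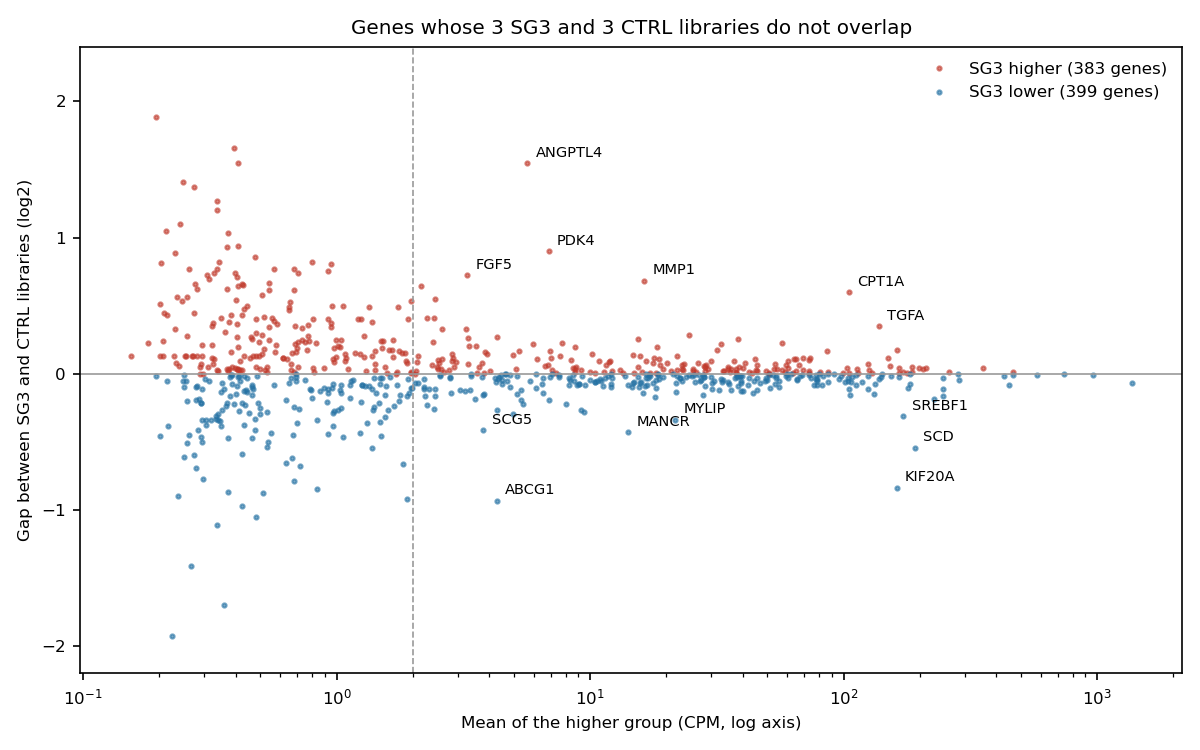
Genes whose 3 SG3 libraries all lie above (red, 383 genes) or all below (blue, 399 genes) the 3 CTRL libraries. The x axis is the mean of the higher group in CPM on a log axis, with a dashed line at 2 CPM, and the y axis is the log2 gap between the lowest library of the higher group and the highest library of the lower group. Beyond the dashed line ANGPTL4, at 1.55, has the widest gap upward and ABCG1, at -0.93, the widest downward.

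Genes of fatty acid oxidation and other PPAR targets held the largest share of members completely higher in SG3 among the gene lists with at least 10 tested members. Of its 31 tested members, 6 (19.4%) had all SG3 libraries above all CTRL libraries, against 2.28% of all genes, and 0 had them below. The 6 members are ANGPTL4, PDK4, CPT1A, PLIN2, SLC25A20 and CREB3L3, of which the last 3 are named after their values were seen. Without CREB3L3, which is barely detected, the count was 5 of 30 (16.7%), and among members averaging at least 5 CPM it was 4 of 23 (17.4%), against 1.29% of all genes at that level. The median log2 fold change of the list was 0.07, against -0.01 over all genes tested, and 12 members had a negative fold change. The median was 0.13 without SG3 replicate 1 and likewise 0.13 without CTRL replicate 2. Without SG3 replicate 1 and CTRL replicate 3, 13 members (41.9%) lay above and 1 (3.23%) below, against 16.5% and 16.8% of all genes.

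ANGPTL4 (chromosome 19, 8363289 to 8374373, plus strand) encodes a secreted inhibitor of lipoprotein lipase and is a classical PPAR target. It had 8.59, 4.24 and 4.15 CPM in SG3 against 1.04, 1.42 and 1.15 CPM in CTRL. Every SG3 library was above the CTRL libraries, and SG3 replicate 1 was the highest. Its log2 fold change of 2.23 ± 0.42 had an adjusted p of 0.565 in edgeR and a DESeq2 adjusted p of 0.000186, and over all settings the adjusted p ran between 3.72e-10 and 1. PDK4 (chromosome 7, 95583499 to 95596491, minus strand), the kinase that turns off pyruvate dehydrogenase and so spares glucose when fat is burned, had 8.27, 6.47 and 5.83 CPM in SG3 against 1.10, 3.12 and 2.56 CPM in CTRL. Its log2 fold change was 1.60 ± 0.31 (DESeq2 adjusted p = 0.000726, edgeR adjusted p = 0.565, range over all settings 4.26e-06 to 1). CTRL replicate 1 was the lowest of these libraries for PDK4.

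CPT1A (chromosome 11, 68754620 to 68844410, minus strand), the enzyme that loads long-chain fatty acids onto carnitine for entry into mitochondria, had the most even SG3 libraries of the 3. It had 108, 106 and 101 CPM in SG3 against 56.9, 66.6 and 39.3 CPM in CTRL, with means of 105 ± 3.6 CPM in SG3 and 54.3 ± 13.9 CPM in CTRL (SD, n = 3 each). Its log2 fold change was 0.95 ± 0.18 (DESeq2 adjusted p = 0.00356, edgeR adjusted p = 0.565, range over all settings 9.41e-06 to 1). SLC25A20, the carnitine carrier of the inner mitochondrial membrane that acts after CPT1A, had 9.37, 11.1 and 10 CPM in SG3 against 7.43, 8.46 and 6.22 CPM in CTRL. PLIN2, a coat protein of lipid droplets, had 82.5, 69.5 and 66.9 CPM in SG3 against 45, 53.6 and 62.3 CPM in CTRL. CREB3L3, a membrane-bound transcription factor that in mouse liver controls fasting lipid genes, was barely detected, with 0.495, 0.256 and 0.434 CPM in SG3 against 0.0441, 0.081 and 0 CPM in CTRL, and it can have passed the low-count filter only through the libraries where it is higher. A count of 0, as in CTRL replicate 3, allows a level of up to 0.0598 CPM there (3 counts, for counting error only). The receptors themselves overlapped between the groups: PPARA had 51.1 to 64.9 CPM in SG3 and 47.8 to 57 CPM in CTRL, PPARD 88.8 to 121 CPM in SG3 and 85.4 to 127 CPM in CTRL, and PPARG 25 to 29 CPM in SG3 and 21.5 to 33.3 CPM in CTRL.

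The SG1 libraries also lay above CTRL for these genes. ANGPTL4 had 3.03, 2.79 and 8.41 CPM, PDK4 6.15, 8.60 and 7.45 CPM and CPT1A 87, 87.8 and 109 CPM in SG1, all above the CTRL libraries that both groups share. The SG3 minus SG1 difference on the log2 scale was 0.26 ± 0.39 for ANGPTL4, -0.11 ± 0.30 for PDK4 and 0.15 ± 0.17 for CPT1A (edgeR adjusted p of 0.913, 0.95 and 0.886). Each difference thus missed the threshold, which does not show that the groups are alike.

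**Figure D2:**
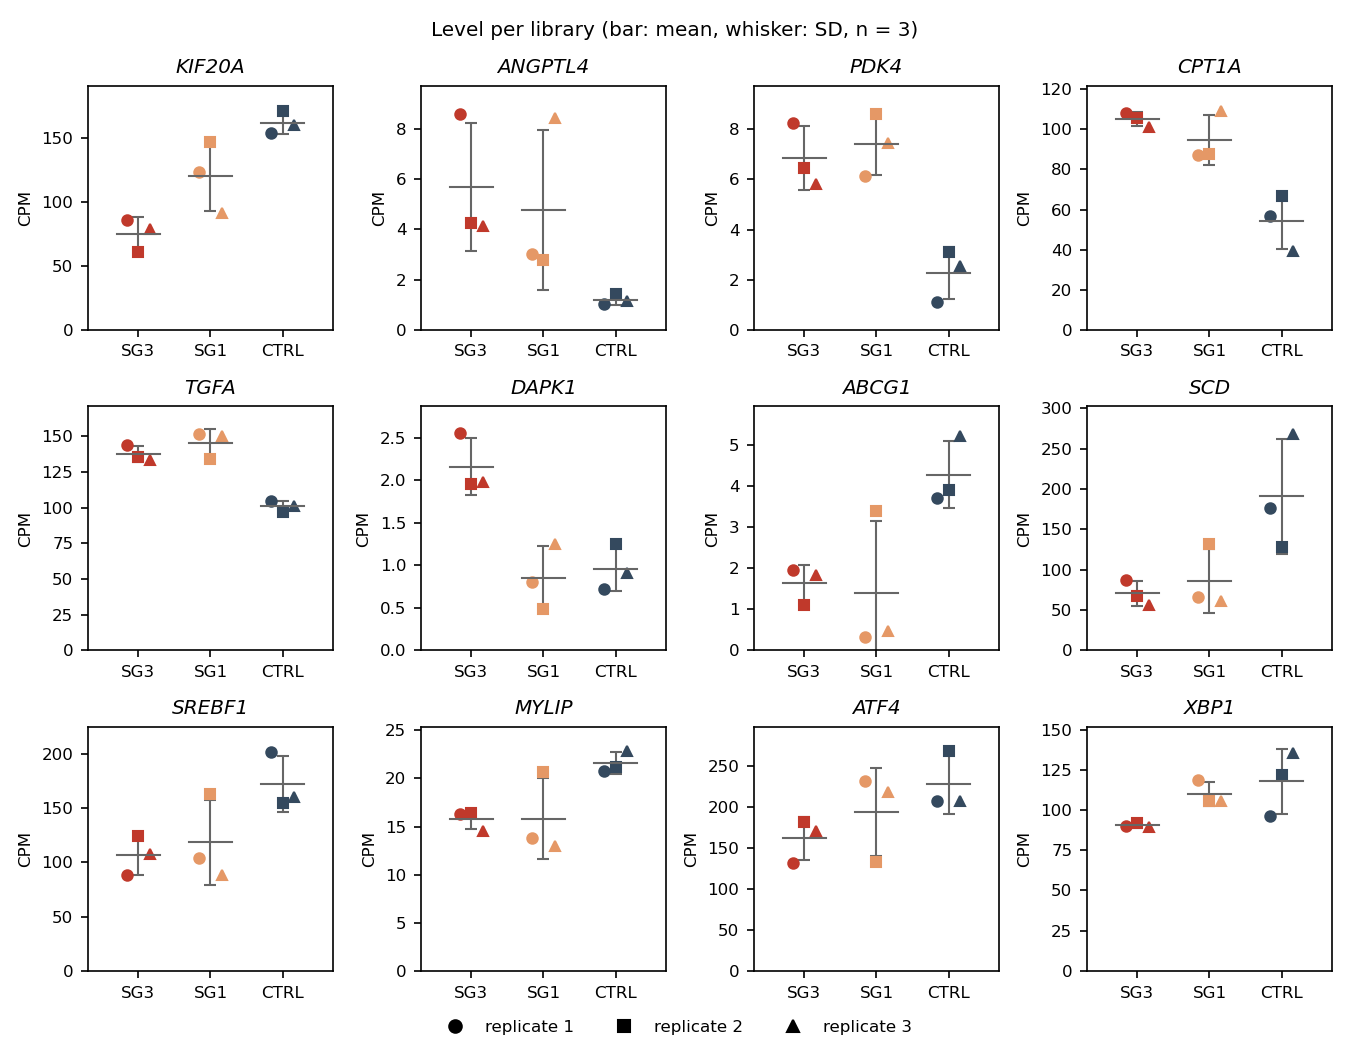
Level of 12 genes in each library, in CPM, with the groups SG3, SG1 and CTRL from left to right and the replicate shown by the marker. The horizontal line is the group mean and the whisker the SD (n = 3). ANGPTL4, PDK4, CPT1A and TGFA are higher in all 3 SG3 libraries than in any CTRL library, and KIF20A, ABCG1, SCD, SREBF1 and MYLIP lower.

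In the opposite arm, fatty acid synthesis and desaturation, the separated members were lower in SG3, while 18 members overlapped. Of 23 tested members 5 (21.7%) had all SG3 libraries below all CTRL libraries, against 2.38% of all genes, and 0 had them above. They are SCD, SREBF1, FADS2, FADS1 and MID1IP1, of which the last pair was named after its values were seen. The median of the list was -0.09, or -0.03 without SG3 replicate 1 and -0.05 without CTRL replicate 1, and 8 of its members had a positive fold change, among them the acetyl-CoA carboxylase gene ACACB. In SG1 against the shared CTRL libraries the median was -0.06. Without SG3 replicate 1 and CTRL replicate 3, 8 members (34.8%) lay below and 1 (4.35%) above, against 16.8% and 16.5% of all genes.

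SCD (chromosome 10, 100347124 to 100364834, plus strand), the stearoyl-CoA desaturase that makes oleic acid, had 87.7, 67.8 and 56.4 CPM in SG3 against 176, 128 and 269 CPM in CTRL. Its log2 fold change was -1.43 ± 0.30, with an unadjusted edgeR p of 0.000261 and an adjusted p of 0.875. It passed the threshold only in edgeR without a low-count filter, with an adjusted p of 7.75e-14. CTRL replicate 3 was the highest, and leaving out 1 library at a time, or the outlying pair together, kept the fold change between -1.62 and -1.11. SREBF1 (chromosome 17, 17810399 to 17837002, minus strand), which encodes the sterol regulatory element-binding protein that drives fatty acid synthesis, had 88.4, 125 and 108 CPM in SG3 against 202, 154 and 161 CPM in CTRL (log2 fold change -0.69 ± 0.21, edgeR adjusted p = 1). The groups did not overlap for either gene. FADS2, the delta-6 desaturase of polyunsaturated fatty acids, had 78.4, 91.2 and 78.2 CPM in SG3 against 112, 92.8 and 119 CPM in CTRL. MID1IP1, an activator of acetyl-CoA carboxylase, had 54.3, 67.7 and 59.8 CPM in SG3 against 69.5, 85.2 and 80.1 CPM in CTRL. Fatty acid synthase itself overlapped, with FASN at 308, 379 and 432 CPM in SG3 against 482, 397 and 374 CPM in CTRL.

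Genes of cholesterol synthesis and uptake leaned the same way but mostly overlapped. Of 25 tested members 24 had a negative fold change and the median was -0.18, against -0.01 over all genes tested, where 53.3% were below 0 and 46.7% above. In SG1 against the shared CTRL libraries the median was -0.24, and for SG3 minus SG1 it was 0.02, so the lean was not particular to SG3. Complete separation was found for 2 members (8%), both lower in SG3, against 2.38% of all genes. Without SG3 replicate 1 and CTRL replicate 3 the median was -0.10, with 9 members (36%) completely lower and 1 (4%) higher, against 16.8% and 16.5% of all genes. SREBF2, the regulator of the cholesterol genes, had 83.6, 91.9 and 84.5 CPM in SG3 against 103, 105 and 111 CPM in CTRL. FDPS, the farnesyl diphosphate synthase, had 28, 36.9 and 37.2 CPM in SG3 against 38.6, 39.7 and 39.6 CPM in CTRL. INSIG1, which retains the sterol sensor in the endoplasmic reticulum, was named after its values were seen: it had 31.3, 21.4 and 21.3 CPM in SG3 against 34.3, 29.4 and 66.1 CPM in CTRL, and the groups overlapped. Its log2 fold change of -0.81 ± 0.27 had an edgeR adjusted p of 1, and CTRL replicate 3 was the highest library.

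A sterol regulatory element in its classical spelling, TCACCCCAC, was searched on both strands of RefSeq promoters (GRCh38.p14, 250 bases before to 50 after each gene's start). It was present in 116 of 27305 promoters (0.425%). Among the promoters found it was in 1 of 19 of the cholesterol list (5.26%), SREBF2, and in 1 of 22 of the fatty acid synthesis list (4.55%), MID1IP1. Both promoters are shown because their genes separated SG3 from CTRL, in lower case with the match in capitals, SREBF2 at chr22:41832855-41833154 on the plus strand and MID1IP1 at chrX:38801209-38801508 on the plus strand, where the match lies on the opposite strand.
SREBF2: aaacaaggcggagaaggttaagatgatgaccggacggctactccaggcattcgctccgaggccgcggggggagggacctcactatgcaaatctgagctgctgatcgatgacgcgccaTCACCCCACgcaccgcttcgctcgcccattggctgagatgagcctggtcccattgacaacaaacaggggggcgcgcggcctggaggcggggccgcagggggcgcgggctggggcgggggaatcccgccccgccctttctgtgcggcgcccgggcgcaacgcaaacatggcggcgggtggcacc
MID1IP1: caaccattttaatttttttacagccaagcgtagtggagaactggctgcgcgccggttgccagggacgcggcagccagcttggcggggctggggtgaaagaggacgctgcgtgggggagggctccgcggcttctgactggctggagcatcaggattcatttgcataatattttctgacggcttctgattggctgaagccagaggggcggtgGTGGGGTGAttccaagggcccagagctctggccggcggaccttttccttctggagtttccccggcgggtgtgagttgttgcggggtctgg
A PPAR response element of the DR1 type was found in 6 of all promoters (0.022%) and in 0 of 28 promoters of the oxidation list. A match in these windows describes letters only.

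**Figure D3:**
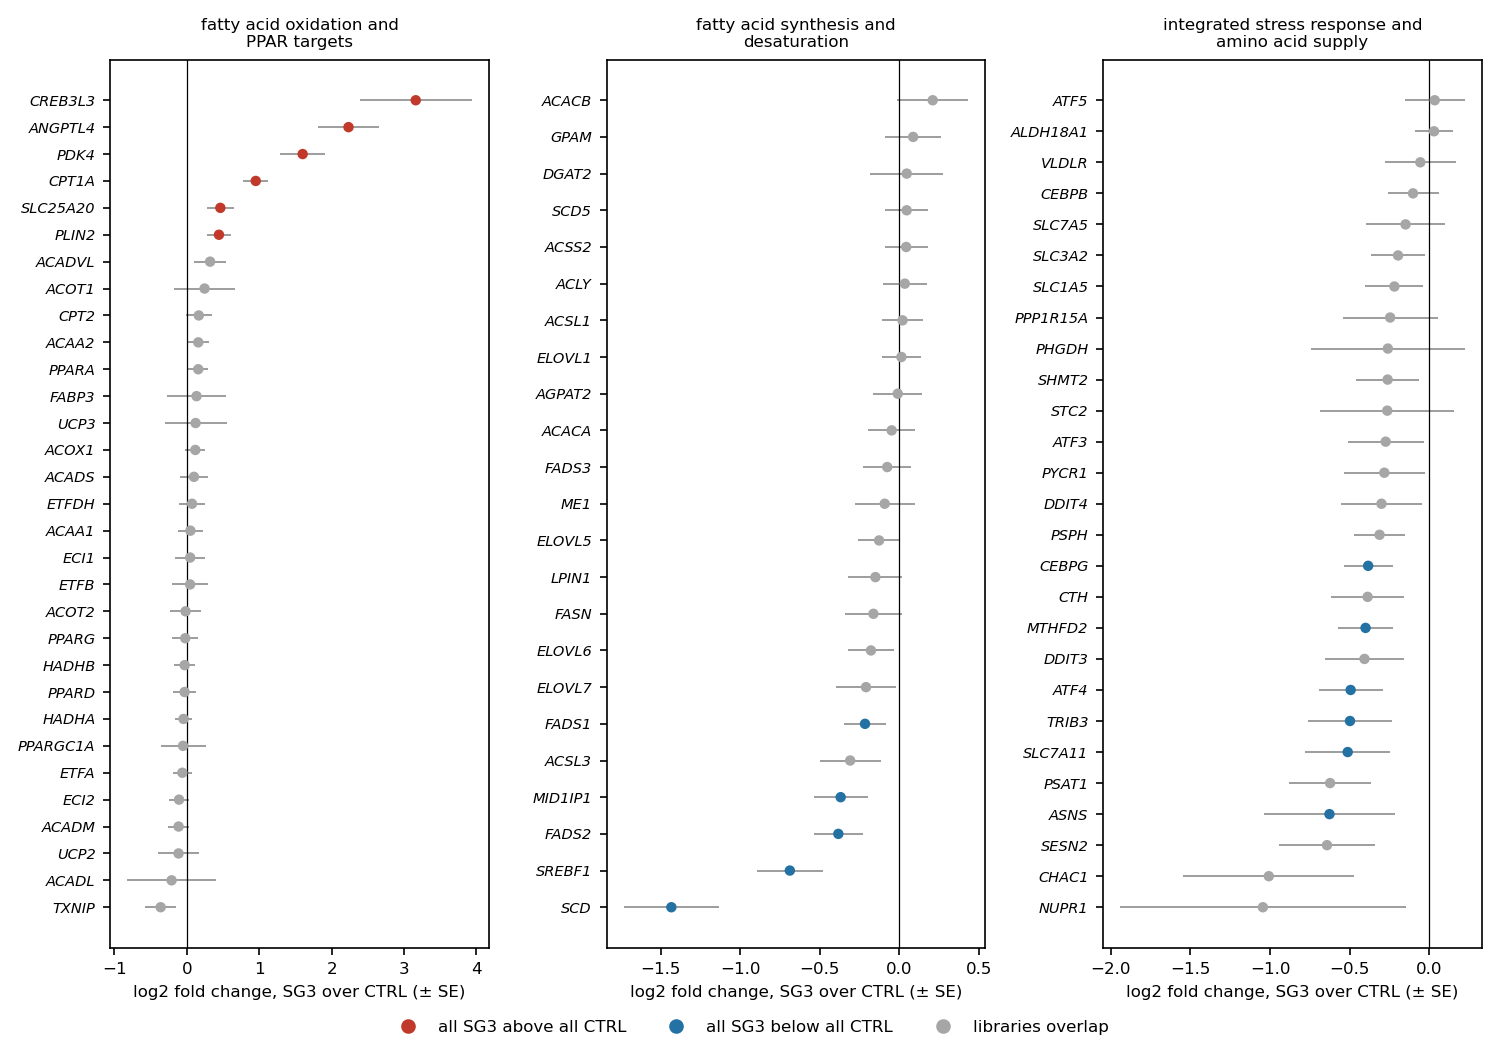
Log2 fold change of SG3 over CTRL for every tested member of 3 lists, with the SE of edgeR's fit as horizontal bars. Red points are members with all SG3 libraries above all CTRL libraries, blue points those with all below, and grey points overlap. In the oxidation list 6 of 31 members are red, in the synthesis list 5 of 23 are blue, and in the integrated stress response list 6 of 27 are blue.

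Among the single genes with the widest gap downward were further targets of the liver X receptors, the oxysterol-sensing receptors that raise sterol export and SREBF1. ABCG1, a sterol exporter, had 1.94, 1.11 and 1.83 CPM in SG3 against 3.71, 3.91 and 5.21 CPM in CTRL (log2 fold change -1.39 ± 0.60). MYLIP, the ubiquitin ligase that degrades the LDL receptor, had 16.3, 16.4 and 14.6 CPM in SG3 against 20.8, 21.2 and 22.9 CPM in CTRL (-0.45 ± 0.18). In SG1 ABCG1 had 0.337, 3.40 and 0.479 CPM and MYLIP 13.8, 20.7 and 13 CPM, also below the shared CTRL libraries. A list of 13 targets of these receptors was drawn up after these values were seen, so it gets no test. Of these, 5 (38.5%, against 2.38% of all genes) lay completely below CTRL, namely ABCA1, ABCG1, MYLIP, SREBF1 and SCD, and SREBF1 and SCD are counted above as well. ABCG1, MYLIP, SREBF1 and SCD were already known to separate, so the share was largely set in advance. The other members overlapped, among them LPCAT3, NR1H3 and SMPDL3A with log2 fold changes of -0.04, -0.03 and 0.13. ABCA1, another sterol exporter, had 71.2, 56.1 and 41.6 CPM in SG3 against 102, 74.3 and 84.3 CPM in CTRL.

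The integrated stress response and amino acid supply list had the largest share on the lower side among lists of at least 10 tested members, apart from the receptor targets above. Of 27 tested members 6 (22.2%) had all SG3 libraries below all CTRL libraries, against 2.38% of all genes. A negative fold change was found for 25 members, against 53.3% of all genes, and the median was -0.30. The 6 were ATF4, CEBPG, MTHFD2, SLC7A11, TRIB3 and ASNS, of which the last pair was named after its values were seen. Without CTRL replicate 2 the median was -0.17, without SG3 replicate 1 it was -0.20, without CTRL replicate 3 it was -0.39, and without both of the outlying libraries it was -0.28, with 13 members (48.1%) completely lower against 16.8% of all genes. ATF4, the transcription factor of this response, had 132, 182 and 171 CPM in SG3 against 207, 269 and 207 CPM in CTRL (log2 fold change -0.49 ± 0.20, edgeR adjusted p = 1, or -0.32 without CTRL replicate 2). CEBPG, its dimer partner, had 42.4, 39.4 and 41.3 CPM in SG3 against 44.6, 55.5 and 60.6 CPM in CTRL. SLC7A11, the cystine importer, had 42.1, 53.9 and 69.6 CPM in SG3 against 81.1, 73.5 and 81.4 CPM in CTRL.

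Other members of this group showed the same ordering at smaller margins. MTHFD2, a mitochondrial enzyme of one-carbon metabolism, had 42.9, 44.8 and 49.1 CPM in SG3 against 50.1, 57.9 and 72.4 CPM in CTRL. TRIB3, a pseudokinase that restrains ATF4, had 27.8, 35.2 and 36.4 CPM in SG3 against 38.3, 56.2 and 45.7 CPM in CTRL. ASNS, asparagine synthetase, was weakly expressed, with 1.07, 0.788 and 0.651 CPM in SG3 against 1.46, 1.13 and 1.30 CPM in CTRL. SG1 was scattered for these genes, since ATF4 had 232, 133 and 219 CPM and SLC7A11 121, 53.3 and 136 CPM there. The median of the whole integrated stress response list was -0.22 in SG1 against the shared CTRL libraries. For SLC7A11 the SG3 minus SG1 difference was -0.91 ± 0.27 (edgeR adjusted p = 0.861).

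**Figure D4:**
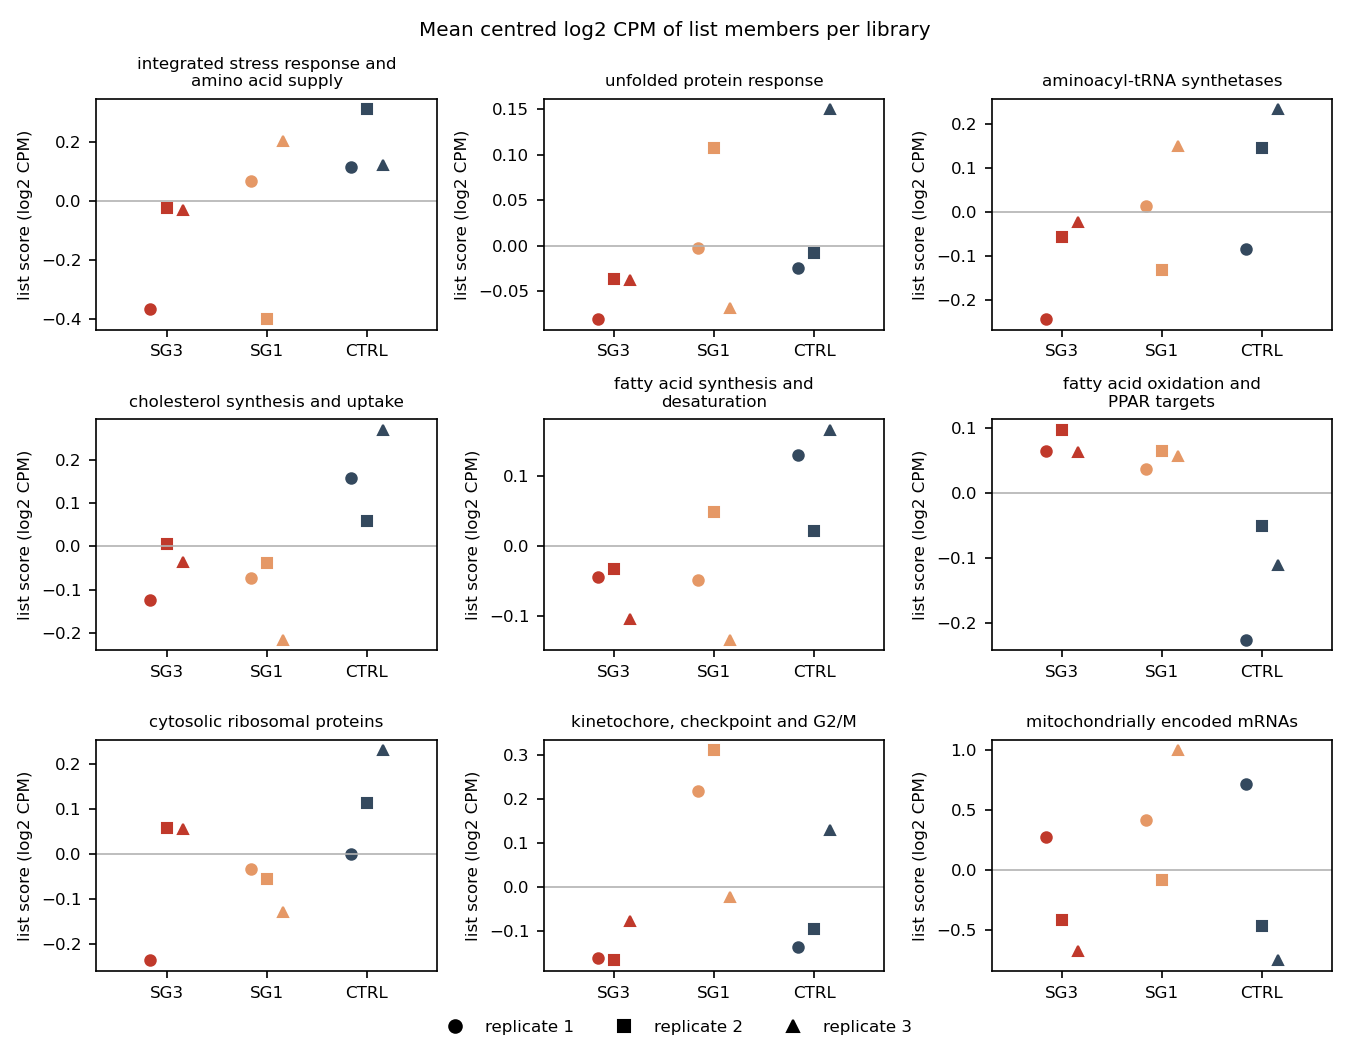
Score of 9 gene lists in each library, the mean over tested members of log2(CPM + 0.5) after subtracting each gene's mean over the 9 libraries, with SG3, SG1 and CTRL from left to right and the replicate shown by the marker. The SG3 libraries of the integrated stress response list lie between -0.37 and -0.02, below the CTRL libraries at 0.12 to 0.31. In the mitochondrial mRNA panel SG3 spans -0.68 to 0.28 and CTRL -0.75 to 0.71.

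The aminoacyl-tRNA synthetases, which charge tRNAs with amino acids and several of which are ATF4 targets, had a median of -0.24 over 20 members, 19 of them negative. Only CARS1, the cysteinyl-tRNA synthetase, separated completely, with 72.4, 88.3 and 86.9 CPM in SG3 against 91.7, 125 and 96.2 CPM in CTRL, which is 5% of the list against 2.38% of all genes. The median was -0.07 without SG3 replicate 1 and CTRL replicate 3. An amino acid response element spelled TGATGCAA was found on either strand in 6 of 16 synthetase promoters (37.5%) and in 1 of 23 promoters of the integrated stress response list (4.35%), CHAC1, against 0.923% of all promoters. CARS1 was among the 6.

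The unfolded protein response list had 4 of 30 members (13.3%) completely lower and 0 higher, against 2.38% and 2.28% of all genes. Without SG3 replicate 1 and CTRL replicate 3, 8 members (26.7%) lay below and 2 (6.67%) above, against 16.8% and 16.5% of all genes. XBP1, its transcription factor, had 90.1, 92.2 and 89.4 CPM in SG3 against 96, 122 and 136 CPM in CTRL (log2 fold change -0.38 ± 0.14, edgeR adjusted p = 1). The SG3 libraries were almost level, and the CTRL libraries spread widely above them. HSPA5, the chief chaperone of the endoplasmic reticulum, had 1095, 1158 and 1106 CPM in SG3 against 1233, 1210 and 1675 CPM in CTRL. PDIA3 and PDIA4, which form disulphide bonds in the same compartment, had log2 fold changes of -0.25 and -0.18, and that of PDIA3 was -0.12 without CTRL replicate 3. The median of the list was -0.11, and it was -0.03 without SG3 replicate 1, -0.10 without CTRL replicate 3 and 0.01 without both, so the sign of the median turned while HSPA5 came to -0.09 and XBP1 to -0.25.

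The endoplasmic reticulum stress element, CCAAT and CCACG separated by 9 bases, was present in 22 of 27305 promoters (0.0806%) and in 6 of 26 promoters of this list (23.1%), those of HSPA5, HSP90B1, CALR, CANX, CRELD2 and XBP1. The promoters of XBP1 (chr22:28800520-28800819, minus strand) and HSPA5 (chr9:125241294-125241593, minus strand), the 2 of these 6 genes that separated SG3 from CTRL, are shown from RefSeq GRCh38.p14, read along the gene with the element in capitals.
XBP1: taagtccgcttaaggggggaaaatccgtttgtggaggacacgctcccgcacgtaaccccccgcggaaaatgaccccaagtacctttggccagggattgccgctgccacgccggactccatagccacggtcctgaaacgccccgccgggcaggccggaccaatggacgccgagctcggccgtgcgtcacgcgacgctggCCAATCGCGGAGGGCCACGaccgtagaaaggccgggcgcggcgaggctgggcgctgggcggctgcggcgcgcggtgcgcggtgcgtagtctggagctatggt
HSPA5: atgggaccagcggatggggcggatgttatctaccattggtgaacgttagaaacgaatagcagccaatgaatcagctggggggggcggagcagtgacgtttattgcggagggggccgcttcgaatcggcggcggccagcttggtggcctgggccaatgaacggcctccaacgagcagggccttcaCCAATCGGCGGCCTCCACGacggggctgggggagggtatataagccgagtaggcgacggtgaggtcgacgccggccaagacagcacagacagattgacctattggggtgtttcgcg
The other 4 genes carrying the element overlapped between the groups.

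In the lists closest to the function of KIF20A few genes other than KIF20A itself separated. Among 30 genes of the central spindle and cytokinesis, KIF20A was the only one whose libraries separated completely (3.33% of the list, against 2.38%). The other kinesin-6 genes overlapped, with KIF23 at 186, 167 and 177 CPM in SG3 against 196, 184 and 254 CPM in CTRL, and KIF20B at 208, 145 and 164 CPM in SG3 against 155, 163 and 221 CPM in CTRL. Of 43 genes of the kinetochore, checkpoint and G2/M group, 41 had a negative fold change, against 53.3% of all genes, and the median was -0.09. Complete separation was found for 2 (4.65%, against 2.38%), both lower: NDC80, a microtubule-binding kinetochore subunit, and CDC25C, the phosphatase that activates CDK1. NDC80 had 84.1, 77.5 and 85 CPM in SG3 against 86.1, 87.2 and 120 CPM in CTRL. The median of this list was 0.01 without SG3 replicate 1 and CTRL replicate 3. The cell cycle homology element TTTGAA was in 12 of 27 central spindle promoters (44.4%) and 21 of 36 G2/M promoters (58.3%), against 15.4% of all promoters.

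Among 27 other kinesins, KIF26B and KIF3C lay above CTRL (7.41%, against 2.28%). KIF26B was weakly expressed, with 0.952, 0.937 and 0.892 CPM in SG3 against 0.529, 0.526 and 0.515 CPM in CTRL, and KIF3C had 44.6, 47.8 and 44.7 CPM in SG3 against 39.8, 43.9 and 38.5 CPM in CTRL. Of 31 Golgi trafficking genes, 1 separated (3.23% higher, against 2.28%), a share near that of all genes. It was RAB6B, a paralog of the RAB6 GTPase that KIF20A binds, with 3.31, 1.90 and 2 CPM in SG3 against 1.61, 1.38 and 1.40 CPM in CTRL. Its log2 fold change of 0.72 ± 0.33 came to 0.40 without SG3 replicate 1 and CTRL replicate 3.

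Further lists of growth, damage and mitochondrial genes are read against the 2.28% of all genes that lay completely higher and the 2.38% that lay completely lower. The p53, Hippo, NF-kB, TGF-beta, MYC and proteasome lists, of 23 to 31 tested members each, had 0 separated members in either direction. DNA replication had 1 of 40 lower (2.5%), GINS3, a share near that of all genes. Homologous recombination and Fanconi genes had 3 of 32 lower (9.4%) and 0 higher, with a median of -0.04. Without SG3 replicate 1 and CTRL replicate 3 the list had 9 lower (28.1%) and 6 higher (18.8%), against 16.8% and 16.5% of all genes. Of 74 cytosolic ribosomal protein genes 71 had a negative fold change with a median of -0.16, but only RPS15A separated (1.35%), and the median was 0.02 without SG3 replicate 1 and CTRL replicate 3. Against the same CTRL libraries SG1 had a median of -0.19 for this list. Nuclear genes of oxidative phosphorylation had 4 of 60 (6.67%) completely lower, among them ATP5PD at 28.9, 33.2 and 33.6 CPM in SG3 against 36.6, 42.4 and 39 CPM in CTRL. Their median log2 fold change was -0.11, and that of SG1 against the same CTRL libraries was -0.17. Without SG3 replicate 1 and CTRL replicate 3 the SG3 median was 0.02. Of the members 9 (15%) then lay below and 10 (16.7%) above, against 16.8% and 16.5% of all genes. All 13 mitochondrially encoded mRNAs overlapped, and the sign of their median turned with the libraries: it was -0.16 over all libraries, 0.43 without CTRL replicate 1, 0.03 without SG3 replicate 3, -0.52 without SG3 replicate 1 and -0.80 without SG3 replicate 1 and CTRL replicate 3. Replication-dependent histone genes, whose mRNAs end without a poly(A) tail, had a median of 0.35 over 13 members, and H3C10 and H1-2 separated upward (15.4%). Their part in the other results was not tested. The treatment of reads shared with pseudogenes or close paralogs is not stated in the labels, which leaves the ribosomal protein and histone values uncertain.

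**Figure D5:**
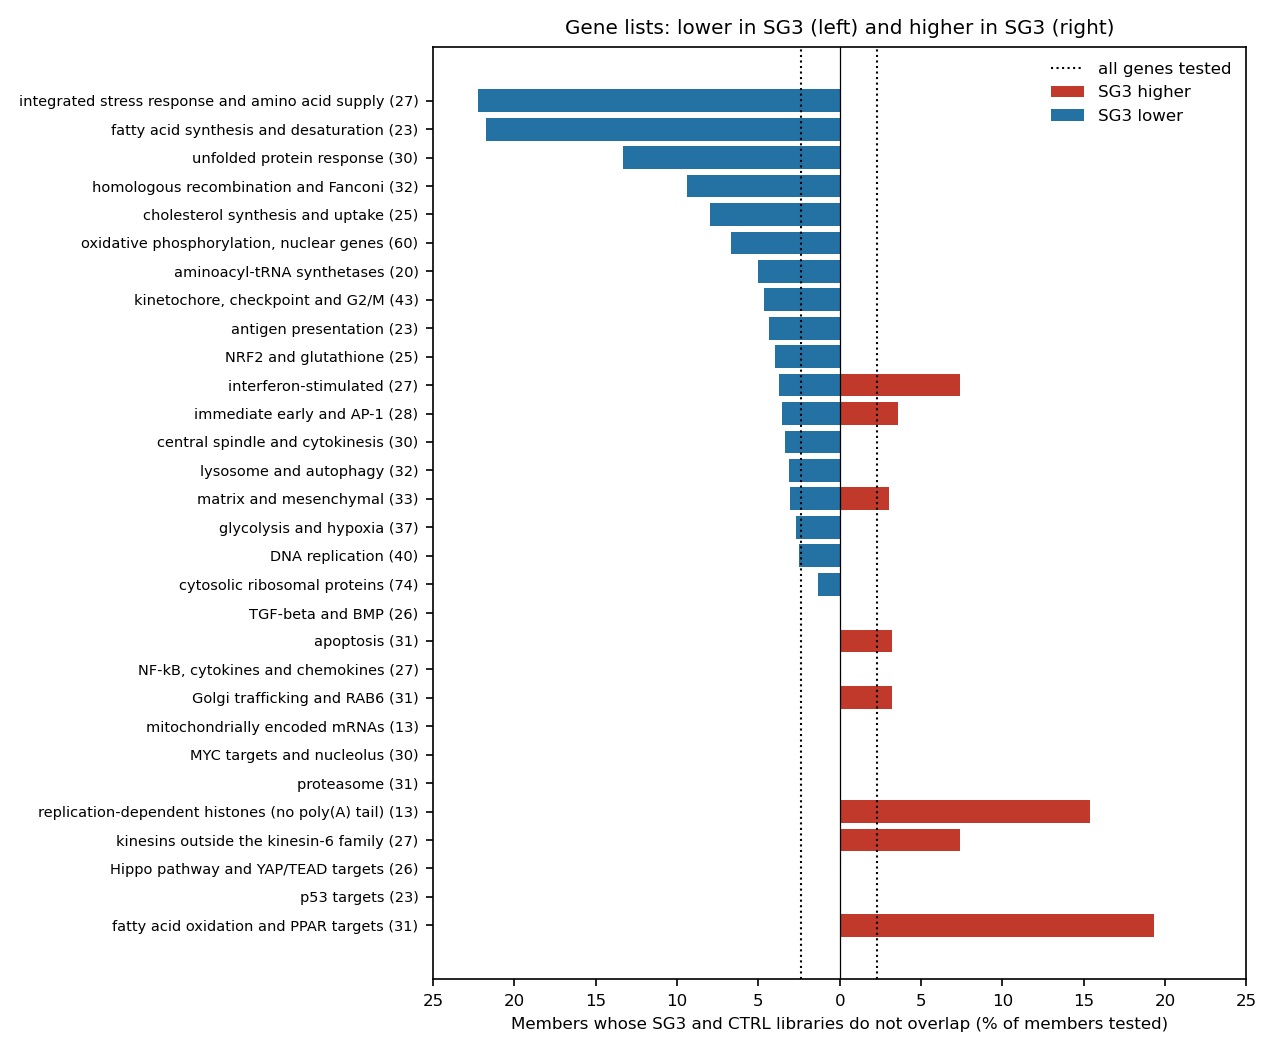
Share of tested members whose SG3 and CTRL libraries do not overlap, in percent, for each list with at least 10 tested members (number in brackets). Blue bars to the left are members lower in SG3, red bars to the right members higher in SG3, and dotted lines mark 2.38% and 2.28% of all genes tested. The integrated stress response (22.2%) and fatty acid synthesis (21.7%) lists reach furthest left, and fatty acid oxidation (19.4%) furthest right.

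The remaining genes of widest gap upward came from the 12 widest gaps among genes averaging at least 2 CPM in the higher group. MMP1, interstitial collagenase, had 5.14, 33.3 and 10.7 CPM in SG3 against 2.6, 3.2 and 2.95 CPM in CTRL. Its SG3 libraries were uneven, and the log2 fold change of 2.49 ± 0.71 (edgeR adjusted p = 1) moved between 1.44, without SG3 replicate 2, and 2.94 when libraries were left out. MMP1 passed the threshold only in edgeR without a low-count filter, with an adjusted p of 3.03e-27. TGFA, a ligand of the EGF receptor, was even, with 144, 135 and 133 CPM in SG3 against 104, 97.2 and 101 CPM in CTRL (0.45 ± 0.12). FGF5, a fibroblast growth factor, had 3.12, 3.66 and 3.01 CPM in SG3 against 1.76, 1.82 and 1.48 CPM in CTRL. ADAMTS1, a secreted protease, and CCN3, a matricellular protein, had log2 fold changes of 1.24 ± 0.45 and 0.89 ± 0.29.

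DAPK1, a calmodulin-regulated death-associated kinase, was higher in every SG3 library than in any library of the other groups. It had 2.55, 1.96 and 1.98 CPM in SG3, 0.801, 0.492 and 1.25 CPM in SG1 and 0.728, 1.26 and 0.907 CPM in CTRL. On the log2 scale SG3 minus SG1 came to 1.36 ± 0.38 (edgeR adjusted p = 0.861). CASTOR2, a homologue of the arginine sensor of the mTORC1 pathway, had 24.1, 25.6 and 24.1 CPM in SG3 against 16.5, 19.4 and 19.7 CPM in CTRL, and RASSF2 had 2.78, 2.64 and 2.39 CPM in SG3 against 1.90, 1.86 and 1.44 CPM in CTRL. MCPH1-DT, annotated as an antisense transcript, had a log2 fold change of 0.60 ± 0.28, and since the labels state no strand setting, its reads and those of its partner gene cannot be told apart. All SG3 libraries were above all SG1 libraries for DAPK1, CASTOR2, RASSF2 and MCPH1-DT.

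Of the 12 widest gaps downward, those not yet described were MANCR, SCG5, MKX, TNFSF9, CD14, ZSCAN31 and NEK3. MANCR, a long non-coding RNA, had 8.86, 8.82 and 9.93 CPM in SG3 against 13.3, 15 and 14 CPM in CTRL (log2 fold change -0.62 ± 0.18, edgeR adjusted p = 1). TNFSF9, the ligand of the co-stimulatory receptor 4-1BB, had 7.58, 5.96 and 6.48 CPM in SG3 against 9.20, 9.35 and 9.79 CPM in CTRL. CD14, a lipopolysaccharide co-receptor, had 7.18, 6.30 and 5.45 CPM in SG3 against 8.65, 10.4 and 8.66 CPM in CTRL. CD14 is also on the leukocyte marker list, whose summed level was 16.1, 14.6 and 11.5 CPM in SG3 against 22.8, 19.2 and 14.3 CPM in CTRL, with 2 of 9 markers tested and CD3E at 0. MKX, a homeobox factor of tendon, had a log2 fold change of -0.77 ± 0.28 that came to -0.37 without SG3 replicate 1 and CTRL replicate 3. SCG5, a secretory granule chaperone, ZSCAN31 and NEK3 had log2 fold changes of -0.78, -0.47 and -0.61.

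Immune, stress, metabolic and matrix lists held single separated genes, mostly at small margins. Among 27 interferon-stimulated genes IFI6 and RSAD2 lay above CTRL (7.41%, against 2.28% of all genes) and OAS1 below it (3.70%, against 2.38%). IFI6 had 9.20, 8.58 and 8.39 CPM in SG3 against 7.30, 7.19 and 6.97 CPM in CTRL. HLA-DRA, a class II antigen-presenting chain, had 48.6, 57.9 and 61.8 CPM in SG3 against 63.6, 66.4 and 65.9 CPM in CTRL and was the only 1 of 23 antigen presentation genes to separate (4.35%, against 2.38%). Of 37 glycolysis and hypoxia genes only ALDOC separated, and of 32 lysosome and autophagy genes only ATG7, both lower. Of 28 immediate early genes JUND lay below CTRL and DUSP5 above it. Of 33 matrix and mesenchymal genes MMP2 lay below CTRL and MMP1 above it. In these lists each share was at most 3.57% in either direction, near the 2.28% and 2.38% of all genes. DUSP5, a phosphatase of ERK, was higher in SG3 by 0.32 ± 0.28 on the log2 scale. ALDOC, ATG7, JUND and MMP2 were lower by log2 fold changes of -0.41, -0.14, -0.20 and -0.79. Leaving out libraries moved several of these, to 0.21 for DUSP5 without CTRL replicate 3 and 0.11 without SG3 replicate 1 as well, to -0.20 for ALDOC without SG3 replicate 3, and to -0.06 for JUND and -0.51 for MMP2 without CTRL replicate 2.

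Markers of other cell types also held a few separated genes. On the luminal epithelial list GATA3 and XBP1 lay below CTRL, out of 8 tested members (25%, against 2.38% of all genes), and the summed level of the list overlapped, with 1130, 1840 and 1606 CPM in SG3 against 1583, 1833 and 1571 CPM in CTRL. On the fibroblast list COL1A2, a chain of type I collagen, was the 1 of 6 tested members to separate (16.7%), with 8.76, 23.9 and 19.5 CPM in SG3 against 28.5, 26.7 and 28.4 CPM in CTRL, and the summed level was 40.7, 61.9 and 48.2 CPM in SG3 against 60.7, 65.6 and 54.1 CPM in CTRL. The endothelial list had 0 of 4 tested members separated, and in lists this short 1 gene makes a large share. The part of these markers in the other results was not tested.

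Over the 24 genes of widest gap, SG1 lay on the same side of the shared CTRL libraries for 5 of the 12 higher and 6 of the 12 lower ones. The genes were picked by their gap from the same CTRL libraries, so this count is not independent of the choice. It was not counted over all separated genes. SG3 lay beyond all SG1 libraries for 4 of the 12 higher and 4 of the 12 lower ones. Among all separated genes it did so for 98 of 383 higher and 117 of 399 lower ones. In the test of SG3 against SG1 edgeR called 0 genes (0%), while 795 (4.74%) had an unadjusted p under 0.05 and DESeq2 called 3 higher and 2 lower. Without SG3 replicate 1 and CTRL replicate 3, edgeR called 1027 genes higher and 501 lower in SG3 than in SG1, and still 0 in SG3 against CTRL. This pair was chosen after seeing the data and lay on the SG1 side of the first principal component. The remaining SG3 and CTRL libraries lie across that component from all SG1 libraries, so these counts depend on the choice of libraries.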

How the data were processed

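RNA-seq libraries of 3 SG3, 3 SG1 and 3 CTRL samples, grouped by their titles, came from a table of unnormalized read counts for 60651 genes that the authors deposited. The submitters' processing notes list STAR 2.7.3a, Trim Galore 0.6.4, limma 3.50.3, Subread 1.6.3 with featureCounts, and hg38. Their roles, the annotation release and any strand setting are not stated there. The 6 overexpression libraries of the series were not used here. GENCODE 29 on GRCh38 held 96.3% of the identifiers and supplied coordinates.

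Counts of the 9 libraries were fitted together by edgeR 4.0.16 with its quasi-likelihood test (R 4.3.3, TMM scaling, default expression filter), with Benjamini-Hochberg adjustment over the 16786 genes tested and a threshold of 0.05. The test was checked on simulated counts. That simulation held no outlying library such as SG3 replicate 1 or CTRL replicate 3, so it does not show how the test behaves with them. Library totals were 40895819 to 51018667 counts, and floors and intervals cover counting error only. No 2 replicates were close enough to be 1 library deposited again. Among counts of 10 to 50, 62.9% to 68% per library were even, and halved counts were an alternative. A gene was called separated where all SG3 libraries lay beyond all CTRL libraries in CPM.

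Members and the 36 gene lists were chosen with earlier results of these data known, and the list of liver X receptor targets after seeing these values, so lists are described by counts and medians with no test. Named genes were KIF20A, the 12 widest gaps in each direction at 2 CPM or more, up to 3 separated members of each list by unadjusted p, and genes called by DESeq2 1.42.0 or with a surrogate variable (sva 3.50.0). Some genes that this rule names are not reported here. Other genes named are said to be chosen after their values were seen, or complete a small count or show a key gene of a list beside its other members. Alternatives were DESeq2, limma-voom (limma 3.58.1) with and without quality weights, RLE scaling, no filter, only the 6 SG3 and CTRL libraries, a replicate block, a surrogate variable, halved counts, CPM on plain totals, members of at least 5 CPM, each library left out in turn and, chosen after seeing the data, SG3 replicate 1 and CTRL replicate 3 left out together, and list counts over members of at least 5 CPM or without CREB3L3.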

Additional observations from a re-analysis of the deposited data

Results flagged for a closer look

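For 3 of the named genes every SG3 library and every SG1 library lay on opposite sides of the CTRL libraries that both groups share. MANCR had 8.86 to 9.93 CPM in SG3, 15.1 to 22.3 CPM in SG1 and 13.3 to 15 CPM in CTRL, a difference of SG3 minus SG1 of -1.07 on the log2 scale (edgeR adjusted p = 0.498). IFI6, an interferon-induced mitochondrial protein, had 8.39 to 9.20 CPM in SG3, 4.62 to 5.88 CPM in SG1 and 6.97 to 7.30 CPM in CTRL, a difference of 0.72 (edgeR adjusted p = 0.861). HLA-DRA had 48.6 to 61.8 CPM in SG3, 75.8 to 103 CPM in SG1 and 63.6 to 66.4 CPM in CTRL, a difference of -0.67 (edgeR adjusted p = 0.861).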

How the results depend on the processing

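All 61 named genes other than KIF20A kept the direction of their fold change in each of the 19 other settings, and so did KIF20A. The count of genes called in SG3 against CTRL was 0 in most settings, but DESeq2 called 3 higher and 1 lower, limma-voom with quality weights called 1 lower, and edgeR without a low-count filter called 5 higher and 3 lower. KIF20A passed the threshold in those 3 settings, with log2 fold changes of -1.09, -1.23 and -1.07, and leaving out 1 library at a time gave -1.18 to -0.97, or -1.20 without SG3 replicate 1 and CTRL replicate 3 together. For SG3 against SG1, DESeq2 called 3 higher and 2 lower, limma-voom with quality weights 891 and 796, and edgeR without a filter 54 and 23. Leaving out 1 library at a time gave 0 to 5 higher and 0 lower, and leaving out SG3 replicate 1 and CTRL replicate 3 together gave 1027 higher and 501 lower. The remaining SG3 libraries then lie across the first principal component from all SG1 libraries, and the cause was not tested.

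Genes with separated libraries numbered 831 higher (2.67% of the genes then tested) and 569 lower (1.83%) without a low-count filter. Leaving out 1 library at a time gave 760 to 1669 higher and 770 to 1634 lower, and leaving out both outlying libraries gave 2773 higher and 2825 lower. Removing a library can only keep or raise these counts, and the cause of the difference between libraries was not tested. Leaving out 1 library moved the fold change of 24 of the 61 named genes by over 1.5 times in some case. Of the list medians under the alternatives, 676 stayed close and 44 moved, and the medians of 23 lists changed sign when some library was left out.

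With the replicate number as a block edgeR called 0 genes, and KIF20A had a log2 fold change of -1.10. Deviations of SG3 and CTRL libraries with the same number correlated at -0.07, 0.18 and -0.06, against -0.16 to 0.17 for unlike numbers. Mitochondrial mRNA fell from replicate 1 to replicate 3 in both groups, from 2.55% to 0.962% in CTRL and from 2.03% to 0.975% in SG3. The labels do not say whether libraries with the same number pair, and these values cannot decide it.

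Depth did not differ much between groups. The main limit is 3 libraries a group of which 1 each stood apart, so a p that misses the threshold does not show that a gene is unchanged.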
